A study of Mus musculus with 22 samples.

Results

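The loops described here are the chromatin loops that the study left without a category although exactly 1 of their anchors sat at the anchor of a CTCF loop. They were taken from all 16370 deposited loops as those labelled "others" in which the midpoint of 1 anchor, and not of the other, lay within 20 kb of an anchor midpoint of a structural or dual-function loop on the same chromosome. This gave 1651 loops, 10.1% of all loops and 46.9% of the 3521 uncategorised loops. They are called one-anchor loops below, the anchor at the CTCF loop is their CTCF-side anchor, and the other is their free anchor. A further 1116 uncategorised loops had no anchor at a CTCF loop anchor, and 754 had both there.

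The cells were G1E-ER4, a mouse erythroblast subline derived from the GATA1-null line G1E, in which both CTCF alleles encode CTCF fused to an auxin-inducible degron and mCherry. In situ Hi-C was done after release from a nocodazole block, in prometaphase at 0 min, ana/telophase at 30 min, early-G1 at 60 min and mid-G1 at 120 min, each without auxin (-auxin) and with it (+auxin). The 18 libraries, 2 or 3 for each of these 8 conditions, were merged into 1 map per condition before loop strengths were measured. All cells, controls included, carried the tagged CTCF and a virally transduced OsTiR, the plant protein that couples auxin to degradation of the tagged protein. A different OsTiR vector, with GFP fused to a mitotic degron, served for the ana/telophase cells, so a comparison of that stage with the others also compares these vectors. The sample labels give 30 min for ana/telophase, and the protocol in the same labels gives another, shorter time.

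CTCF is a zinc finger protein that binds a directional DNA motif. Cohesin, a ring complex, is thought to extrude DNA loops until it meets CTCF, and loops are most often seen between CTCF motifs that point at each other. Cis-regulatory elements (CREs), here enhancers and promoters marked by H3K27ac, also contact each other. The study called a loop structural where CTCF and cohesin lay at both anchors, CRE where CREs lay at both, and dual-function where both held. An uncategorised loop therefore lacked CTCF with cohesin at 1 anchor or both, and a CRE at 1 anchor or both. The rule used here rests on the distance to the anchor of a CTCF loop, not on CTCF binding at the anchor itself. Loop strength is the ratio of observed contacts to those expected from the surrounding pixels, so a value of 1 means no local enrichment.

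The sequences that bear on these loops are the CTCF motifs at their anchors. Among the individual loops named by rule further on, 6 CTCF-side anchors and 2 free anchors held an exact match of the 12-letter CTCF core consensus. Matches were sought in their 30 kb windows, and the loops described last, at 2 shared anchors, are not counted here. They are shown because they carry the orientation of the anchor, except that at the free anchor of the Bambi loop, which is not shown. Each is given 5′ to 3′ on the strand of the match, from mm9, with the consensus in capitals and its flanks in lower case.
Rgs6 anchor (chr12:84213452-84213491, + strand): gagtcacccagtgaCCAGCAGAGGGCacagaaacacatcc
Jak2 anchor (chr19:29328451-29328490, - strand): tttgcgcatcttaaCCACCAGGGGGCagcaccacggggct
Mosc2 anchor (chr1:186649166-186649205, - strand): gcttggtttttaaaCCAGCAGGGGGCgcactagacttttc
anchor of the loop to Tnrc18 (chr5:143194163-143194202, - strand): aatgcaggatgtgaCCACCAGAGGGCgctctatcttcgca
Btbd9 anchor (chr17:30582988-30583027, - strand): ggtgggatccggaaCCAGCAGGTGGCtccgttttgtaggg
anchor of the loop to Golga3 (chr5:110025858-110025897, - strand): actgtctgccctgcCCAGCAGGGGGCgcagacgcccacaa
Golga3 free anchor (chr5:110633973-110634012, + strand): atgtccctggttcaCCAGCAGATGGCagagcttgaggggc
The first 3 point from the CTCF-side anchor into the one-anchor loop. The next 3 point away from it, and so does the match at the free anchor of the Golga3 loop.

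The one-anchor loops formed after mitosis and were, as a set, weaker with auxin. Most were listed through calls in -auxin cells alone, which favours this direction, as described with the calls below. In -auxin cells their median strength went from 1.05 ± 0.0362 in prometaphase through 1.42 ± 0.0871 (ana/telophase) and 1.67 ± 0.115 (early-G1) up to 1.76 ± 0.129 at mid-G1, where the error is the SD over the medians of 20 chromosomes taken singly. In +auxin cells it was 1.02 ± 0.0478, 1.24 ± 0.0491, 1.37 ± 0.0846 and 1.40 ± 0.0720 at the same stages. The medians of the treatments thus lay within 1 SD of each other in prometaphase and more than 1 SD apart at each later stage. Single loops ranged in mid-G1 from 0.447 to 12.9 without auxin and from 0.439 to 10.0 with it, so the ranges overlapped almost fully. A strength of at least 1.5 was reached by 7.15%, 40.1%, 64.0% and 69.4% of the loops at these stages without auxin, against 6.66%, 20.8%, 37.8% and 40.4% with auxin. Over all loops the mid-G1 shares were 73.1% and 43.1%, a drop of about the same size.

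Without auxin, mean strength was 1.10 in prometaphase and 1.96 by mid-G1. Of this rise, 49.4% ± 4.61 (SD over 19 chromosomes) had been reached by ana/telophase and 84.2% ± 5.33 by early-G1. With auxin the mean rose from 1.08 to 1.53, and 56.9% of that smaller rise had been reached by ana/telophase, with an SD of 14 percentage points over chromosomes. Structural loops had reached 44.7% ± 2.23 by ana/telophase without auxin, a gap of about the SD of the one-anchor loops, and CRE loops 77.7% ± 4.98. The other uncategorised loops gave 45.7% ± 8.28 with no CTCF loop anchor and 50.0% ± 5.11 with both, so the one-anchor loops did not stand apart from them. In CRE loops the early-G1 mean was above that of mid-G1, at 105% of the rise, while the one-anchor loops still rose after early-G1.

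**Figure D1:**
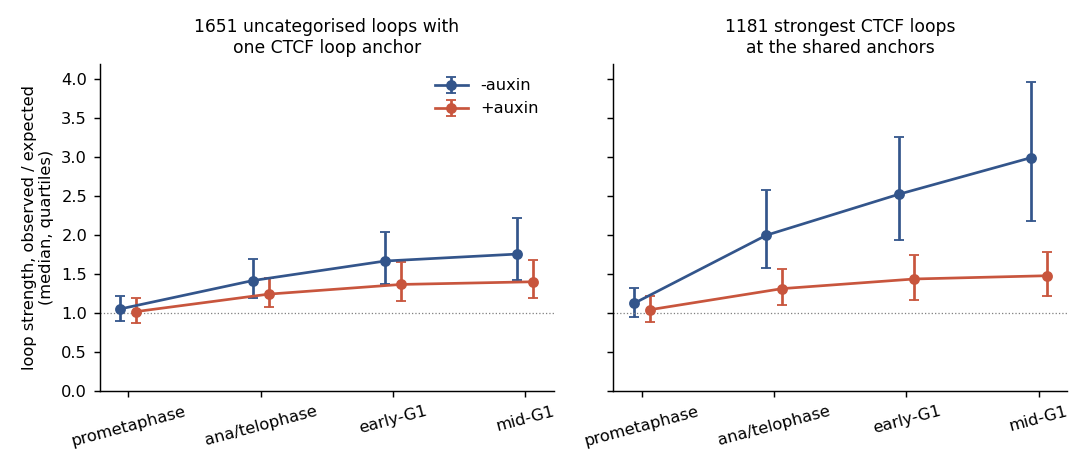
Loop strength (y axis, observed over expected contacts) by stage without auxin (blue) and with auxin (red), for the 1651 one-anchor loops and for the 1181 CTCF loops that are the strongest at the shared anchors. Points are medians over loops and bars the quartiles; in mid-G1 the one-anchor loops stand at 1.76 without and 1.40 with auxin, and the CTCF loops at 2.99 and 1.48.

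The change of single loops was computed as log2(+auxin / -auxin). Its median over one-anchor loops was -0.03 ± 0.05 while the cells were in prometaphase and -0.17 ± 0.06 (ana/telophase), -0.24 ± 0.05 (early-G1) and -0.30 ± 0.06 (mid-G1) afterwards. The chromosome medians were below 0 on 13 of 20 chromosomes in prometaphase and on all 20 at each of the 3 later stages. In mid-G1, 1331 of the 1651 loops (80.6%) had a lower value with auxin, close to the 77.1% of all loops. The tables used here hold 1 value per condition, from merged replicates, so this spread is one across the genome and not between cultures, and no test between treatments was made.

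Relative to all loops the one-anchor loops did not lose strength. The median change of all 16370 loops in mid-G1 was -0.38, and after subtraction of it the median of the one-anchor loops was 0.074, on the other side of 0. Of all loops, 8207 were CTCF loops, with medians of -0.87 for structural and -0.44 for dual-function loops, whereas CRE loops stood at -0.02. Among uncategorised loops the median fell in order of the number of CTCF loop anchors, from -0.13 ± 0.08 with none, through -0.30 ± 0.06 with 1, to -0.62 ± 0.13 with both. The gaps between these 3 groups were larger than their chromosome SDs.

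A loss of at least 1.5-fold in mid-G1 was seen in 386 one-anchor loops (23.4%), below the 36.7% of all loops. The corresponding shares were 308 loops (18.7%) in early-G1 against 31.4% of all loops, 145 (8.78%) in ana/telophase against 20.4%, and 143 (8.67%) in prometaphase against 9.52%. A gain of at least 1.5-fold was rarer after mitosis. It was seen in 29 one-anchor loops (1.76%) in mid-G1 against 2.83% of all loops, in 26 (1.57%) in early-G1 against 2.55%, and in 11 (0.666%) in ana/telophase against 0.886%. In prometaphase 95 (5.76%) passed that fold upwards against 6.46% of all loops.

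The study recorded for each loop and treatment the stage at which it was first called. By these records 1307 one-anchor loops (79.2%, 95% Wilson interval 77.1 to 81.1) were called in -auxin cells only, against 71.1% of all loops. A further 134 (8.12%) had calls under both treatments, against 14.4%, while 210 (12.7%) had calls with auxin alone, against 14.6%. The share called in -auxin cells only was 66.0% (63.2 to 68.8) in the uncategorised loops with no CTCF loop anchor and 91.1% (88.9 to 92.9) in those with both. A loop had to be called in some map to be listed, so a strength difference between loops called in one treatment and those called in the other is partly built in, and the Wilson intervals cover counting error only. The median mid-G1 log2 change was -0.38 ± 0.04 in loops called in -auxin cells only and 0.18 ± 0.16 in those called with auxin alone. In the 134 called under both treatments it was -0.08 ± 0.11, with 9 of 14 chromosome medians below 0. The lower median of the whole set is thus also partly built in by the calls.

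The calls separate the treatments more sharply than the strengths do. Where a loop counts as present at a strength of at least 1.5 in any map after prometaphase, 1297 one-anchor loops were present in some treatment. Of these, 488 (37.6%) were present without auxin alone, 742 (57.2%) under both treatments and 67 (5.17%) with auxin alone. Over all loops the same rule gave 36.4%, 58.0% and 5.60%, so by strength the one-anchor loops stood close to the background.

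The first calls came late. Of the 1441 one-anchor loops called without auxin, 95 (6.59%) were first called in ana/telophase, 577 (40.0%) at the next stage and 769 (53.4%) at mid-G1. Over all loops called without auxin, 20.7% were first called in ana/telophase and 39.3% in mid-G1. The ana/telophase share was 16.0% in uncategorised loops with no CTCF loop anchor and 8.21% in those with both. These loops gave similar mid-G1 shares, with 54.1% first called in mid-G1 where no anchor, and 54.2% where both anchors, lay at a CTCF loop anchor. Of the 344 one-anchor loops called with auxin, 1 was first called in prometaphase, 39 (11.3%) in ana/telophase, 199 (57.8%) at the early-G1 time and 105 (30.5%) at the last time. Over all 4736 loops called with auxin, the shares at the last 3 stages were 27.3%, 53.1% and 19.2%.

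Each one-anchor loop was next set against the CTCF loops that share its anchor. A median of 2 CTCF loops, and at most 9, had an anchor within 20 kb of the CTCF-side anchor. For 1076 loops (65.2%) all of these were structural, for 253 (15.3%) all were dual-function, and 322 (19.5%) had both kinds. The 1651 loops used 1536 distinct CTCF-side anchors and 1572 distinct free anchors. Of the CTCF-side anchors, 101 served 2 or more one-anchor loops, 216 loops in all, and a free anchor served at most 3. The CTCF-side anchor lay upstream of the free anchor in 825 loops and downstream in 826.

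The strongest CTCF loop at the shared anchor, by its mid-G1 -auxin strength, was a far stronger contact and responded more. Its median in mid-G1 was 3.13 without auxin and 1.51 with it, taken once per one-anchor loop, and its median log2 change was -1.04. In 219 one-anchor loops (counted in mid-G1 without auxin) the one-anchor loop was itself the stronger of the pair, and in 187 its log2 change was the more negative. With auxin the medians of the one-anchor loops and of these CTCF loops came close together, at 1.40 and 1.51. The strongest of several loops was picked by its -auxin value, which raises its loss.

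Across loops, the mid-G1 log2 change of a one-anchor loop and that of its strongest CTCF loop correlated weakly (Pearson r = 0.26, Spearman rho = 0.27, n = 1651 loops). Both members of a pair come from the same pair of maps and share an anchor, and several one-anchor loops can share 1 CTCF loop. The changes of one-anchor loops in ana/telophase and in mid-G1, which rest on different maps, correlated with r = 0.60 and rho = 0.57. Changes in prometaphase and in mid-G1 gave r = 0.09.

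Position relative to the CTCF loops divided the one-anchor loops into 3 kinds. In 1138 (68.9%, Wilson interval 66.7 to 71.1) a CTCF loop from the shared anchor ran in the same direction and further, so that the one-anchor loop lay inside it. In 293 (17.7%) all CTCF loops on that side were shorter, and the one-anchor loop reached beyond them. In the remaining 220 (13.3%) every CTCF loop from the anchor ran in the opposite direction. Median sizes were 170 kb inside, 475 kb beyond and 172.5 kb opposite, against 200 kb for all one-anchor loops. The place is fixed in part by size, since a short loop can more readily lie inside another.

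The loops in the opposite direction responded least. Their median log2 change in mid-G1 was -0.12 ± 0.18 (SD over 19 chromosomes), against -0.33 ± 0.09 for loops inside and -0.33 ± 0.20 for loops beyond. Their quartiles were -0.39 and 0.15, so values on both sides of 0 were common, and 63.2% were lower with auxin against 84.4% of the loops inside. They were called in -auxin cells only in 61.4% (54.8 to 67.6) and in +auxin cells only in 25.0% (19.7 to 31.1). The loops inside gave 83.5% (81.2 to 85.5) and 9.49% (7.92 to 11.3), and these intervals did not overlap those of the opposite loops. Loops beyond gave 75.8% (70.5 to 80.3) and 16.0% (12.3 to 20.7), and the latter overlaps the interval of the opposite loops. Over all loops these shares were 71.1% and 14.6%. Few opposite loops fall on each chromosome, and their median differs from that of the inside loops by only a little more than their chromosome SD. The median of the opposite loops was below 0 on 15 of 19 chromosomes, and that of the inside loops on 20 of 20. The strongest sharing CTCF loop also differed between the places, with a median mid-G1 -auxin strength of 3.44 for loops inside and 2.20 for loops opposite.

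**Figure D2:**
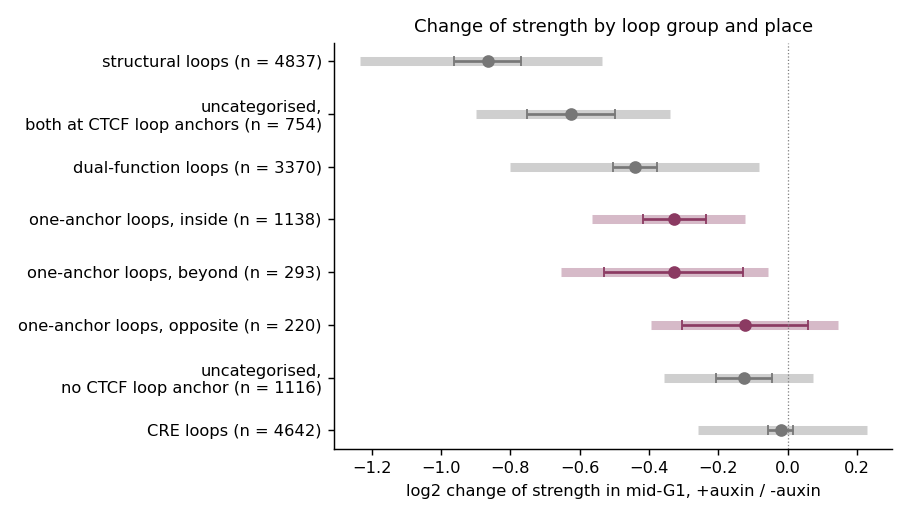
Median log2 change of strength in mid-G1 (x axis, +auxin over -auxin) for one-anchor loops by their place relative to the CTCF loops of the shared anchor (purple) and for other loop groups (grey). Points are medians, thin bars the SD of single-chromosome medians, and thick bars the quartiles over loops; the loops opposite stand at -0.12, near the uncategorised loops without a CTCF loop anchor at -0.13.

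Size went with the response as well. One-anchor loops of up to 100 kb had a median change of -0.18 ± 0.07 (397 loops) and those of 200 to 500 kb one of -0.42 ± 0.09 (559 loops). A loss of at least 1.5-fold in mid-G1 was seen in 5.54% of the former and 34.5% of the latter, against 36.7% of all loops of any size. Loops above 500 kb gave -0.36 ± 0.19 (250 loops). Starting strength rose with size too, with mid-G1 -auxin medians of 1.34, 2.06 and 2.29 in these classes. Across one-anchor loops the change correlated with log2 size at rho = -0.25 and with mid-G1 -auxin strength at rho = -0.59. The latter strength is itself part of the change, and size and starting strength were not told apart. The kind of CTCF loop at the anchor made a smaller difference, with -0.33 ± 0.07 beside structural loops alone and -0.24 ± 0.10 beside dual-function loops alone, a gap of the size of these SDs.

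CTCF motifs were not used to choose the loops, but the rule puts the CTCF-side anchor near loops defined by CTCF binding and the free anchor away from them, so a difference in motifs between the anchors is partly set by the rule. An exact match of the 12-letter core consensus of CTCF, on either strand, lay within 30 kb windows around 595 of the 1651 CTCF-side anchors (36.0%, Wilson interval 33.8 to 38.4) and 226 of the free anchors (13.7%, 12.1 to 15.4). The share was 46.4% over the anchors of structural loops, 19.4% over those of CRE loops, 14.5% over those of uncategorised loops without a CTCF loop anchor, and 33.1% over the anchors of all loops. Free anchors were thus close to the uncategorised loops without a CTCF loop anchor. Median GC content of the windows was 45.5% for CTCF-side and 44.4% for free anchors. Where the consensus was allowed 1 mismatch, 97.8% of CTCF-side and 93.0% of free anchors held a match, a far smaller gap. A match is a description of the sequence and not a measured binding site.

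The matches at CTCF-side anchors mostly pointed into the one-anchor loop. Of 537 CTCF-side anchors whose matches all lay on one strand, 423 (78.8%, 75.1 to 82.0) pointed towards the free anchor, near the 76.4% found at anchors of structural loops. The share was 70.5% (69.6 to 71.4) over the anchors of all loops, 67.8% for uncategorised loops without a CTCF loop anchor and 61.8% for CRE loops. At free anchors 127 of 218 (58.3%, 51.6 to 64.6) pointed back towards the CTCF side. Direction also differed by place, which is itself set by the direction of the CTCF loops at the anchor and so may fix part of the difference. It was towards the free anchor in 321 of 387 anchors (82.9%, 78.9 to 86.4) of loops inside and in 73 of 90 (81.1%, 71.8 to 87.9) of loops beyond, but in 29 of 60 (48.3%, 36.2 to 60.7) of loops opposite. The Jak2 and Rgs6 anchors shown above, both of loops inside, point into the loop, whereas that of the Tnrc18 loop, also inside, points away. Both anchors shown for loops beyond, at Btbd9 and in the Golga3 loop, point away too. The Mosc2 anchor belongs to a loop opposite its CTCF loops and points into the one-anchor loop too. By call, the share was 80.6% (76.6 to 84.0) for loops called in -auxin cells only and 68.2% (56.2 to 78.2) for those called in +auxin cells only, whose intervals overlap.

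**Figure D3:**
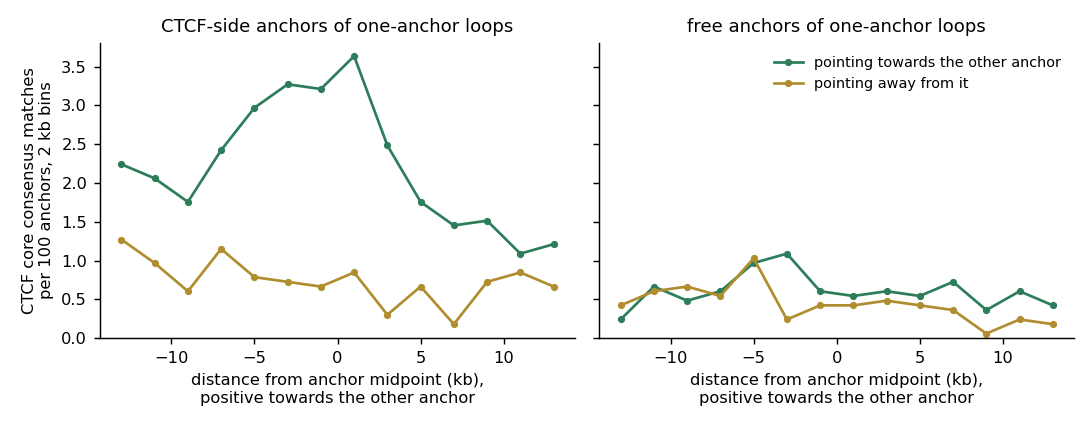
Exact matches of the CTCF core consensus per 100 anchors (y axis) in 2 kb bins by distance from the anchor midpoint (x axis, kb), split by whether the match points towards the other anchor of the loop (green) or away from it (yellow), at the 1651 CTCF-side and 1651 free anchors. At CTCF-side anchors the matches pointing towards the other anchor reach 3.63 per 100 anchors beside the midpoint, against 0.848 for those pointing away, and at free anchors neither direction exceeds 1.09.

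Boundaries of topologically associating domains, regions across which contacts are depleted, lay within 20 kb of 619 CTCF-side anchors (37.5%, 35.2 to 39.9) and of 243 free anchors (14.7%, 13.1 to 16.5). Structural loops gave 38.9% and uncategorised loops without a CTCF loop anchor 14.2%. The 481 distinct boundaries at CTCF-side anchors had a median boundary strength, the deposited insulation difference, of 1.02 without auxin and 0.580 with it in mid-G1, a median log2 change of -0.80. The 212 at free anchors had medians of 0.753 and 0.567, a change of -0.34. Over all 6376 boundaries these values were 0.499, 0.332 and -0.48. The 275 boundaries at uncategorised loops without a CTCF loop anchor gave 0.683, 0.527 and -0.31, close to those at free anchors.

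Free anchors near a CRE loop anchor numbered 396 of 1651 (24.0%, 22.0 to 26.1), at the distance of 20 kb. The CTCF-side anchors of the same loops were near one more often, in 504 cases (30.5%, 28.4 to 32.8). Both anchors were near a CRE loop anchor in 150 loops and neither in 901 (54.6%). The share was 17.9% over anchors of uncategorised loops without a CTCF loop anchor, 26.1% over those of loops with both, 21.7% over the anchors of structural loops and 55.9% over those of dual-function loops. At the finest scale, the 10 kb or 25 kb summit bin of the free anchor overlapped a transcription start of a protein-coding gene in 251 loops (15.2%), an exon in 708 (42.9%), an intron alone in 203 (12.3%) and no such gene in 489 (29.6%). The CTCF-side bins gave 19.4%, 37.0%, 8.18% and 35.4%. The share of free anchors near a CRE loop anchor depends on the distance, with 15.6% at 10 kb and 39.1% at 40 kb.

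Loops with and without a CRE loop anchor near the free anchor differed in response by less than the spread over chromosomes. The median log2 change in mid-G1 was -0.29 ± 0.10 for the 396 loops near one and -0.31 ± 0.07 for the 1255 away from one. Calls with auxin alone made up 14.6% (11.5 to 18.5) of the former and 12.1% of the latter, within that interval. The share inside a CTCF loop was 67.4% and 69.4%. Free anchors near a CRE loop anchor held a transcription start of a protein-coding gene within 30 kb windows in 47.5% of cases (42.6 to 52.4) against 22.7% (20.5 to 25.1) for those away. Over the anchors of CRE loops that share was 71.4%, over CTCF-side anchors 36.9% and over free anchors as a whole 28.6%.

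The 210 one-anchor loops called in +auxin cells only were more often crossed by structural loops. Their median strength in mid-G1 was 1.26 without auxin and 1.47 with it, and in ana/telophase 1.25 and 1.29. These differences are partly built in by the call. Of the 210, 100 (47.6%, 41.0 to 54.4) were crossed by a structural loop, meaning that a structural loop had 1 anchor inside the one-anchor loop and the other outside it, each over 20 kb from both of its anchors. Of the 1307 called in -auxin cells only, 273 (20.9%, 18.8 to 23.2) were crossed. The share also varied with loop size. By size class, in +auxin-only against -auxin-only loops, it was 33.9% against 3.53% up to 100 kb, 38.5% against 12.8% from 100 to 200 kb, 68.5% against 30.3% from 200 to 500 kb and 56.3% against 38.2% above 500 kb, where the intervals overlap.

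The same difference was seen by place, with 52.8% (43.4 to 61.9) against 16.9% (14.7 to 19.5) in loops inside and 34.5% (23.4 to 47.7) against 14.1% (9.20 to 20.9) in loops opposite. In loops beyond, 51.1% (37.2 to 64.7) and 41.9% (35.6 to 48.5) overlapped. Uncategorised loops without a CTCF loop anchor gave 40.2% (33.7 to 47.0) against 20.4% (17.6 to 23.4), so the pattern was not limited to the one-anchor loops. Those with both anchors at CTCF loop anchors gave 37.1% (23.2 to 53.7) of 35 loops against 20.1% (17.3 to 23.2), where the intervals just overlap. Among the 210 one-anchor loops called in +auxin cells only, the crossed loops had a median mid-G1 change of 0.27 ± 0.15 (SD over 8 chromosomes). The others had one of 0.12 ± 0.14 (SD over 11 chromosomes).

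**Figure D4:**
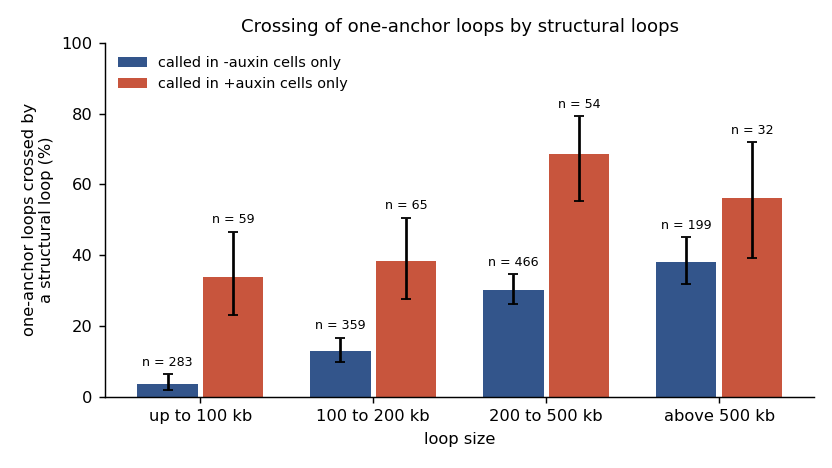
Share of one-anchor loops crossed by a structural loop (y axis, percent) in 4 size classes, for loops called in -auxin cells only (blue) and in +auxin cells only (red). Bars start at 0, error bars are 95% Wilson intervals and n is the number of loops; the red bar is the higher in each class, from 33.9% against 3.53% in the shortest to 56.3% against 38.2% in the longest.

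The strongest one-anchor loop without auxin, among those with a 10 kb summit, joined the start of Tctn2, which encodes a protein of the ciliary transition zone, to an exon of the axonemal dynein gene Dnahc10, 170 kb away on chromosome 5 (mm9, anchors chr5:125040001-125050000 and chr5:125210001-125220000). From prometaphase to mid-G1 its strength was 6.84, 6.72, 9.69 and 12.9 without auxin and 6.82, 6.78, 10.5 and 9.45 with it. It was already strong in prometaphase in both treatments, unlike the median loop at 1.05. It lay inside a CTCF loop from the shared anchor. The strongest CTCF loop at that anchor, of 690 kb, had a mid-G1 strength of 10.1 without auxin and 4.61 with it. The change of the one-anchor loop in mid-G1 was -0.45 in log2, and at the earlier stages the treatments lay within 0.11 of each other in log2.

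A loop of 230 kb between the start of Rps6ka4, a stress-activated kinase gene, and a region without a protein-coding gene on chromosome 19 (chr19:6910001-6920000 and chr19:6680001-6690000) was second. It gave 7.26, 11.0, 11.1 and 12.6 without auxin and 8.65, 9.32, 11.2 and 10.0 with it, and was called in both treatments from ana/telophase on. It too was strong in prometaphase. Such loops were few, as 23 one-anchor loops (1.39%) had a prometaphase strength of at least 2 in both treatments, against 1.23% of all loops. Of the 5 strongest loops without auxin, 3 were among these 23. The study's methods describe false calls from outlier pixels that recur at every stage and in both treatments, and removed pixels called in nearly all maps. Whether the loops here that were strong in prometaphase are remaining cases was not tested.

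The third, of 1010 kb, joined an exon of Smarca5, the ATPase of ISWI chromatin remodellers, to an exon of Abce1, a ribosome recycling factor (chr8:83230001-83240000 and chr8:82220001-82230000). Its strengths were 2.52, 6.70, 8.65 and 9.77 without auxin and 5.63, 4.67, 5.50 and 7.23 with it. From ana/telophase on it was lower with auxin at each stage, with a mid-G1 change of -0.43, while its strongest CTCF loop went from 5.45 to 1.77. Its free anchor lay 10 kb from a CRE loop anchor.

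The fourth, of 1950 kb, ran from an exon of the RNA helicase gene Ddx1 to an exon of Smc6, a subunit of the SMC5/6 complex (chr12:13240001-13250000 and chr12:11290001-11300000). It rose from 0.878 in prometaphase through 4.51 and 5.47 to 8.73 without auxin, and from 1.26 through 2.48 and 7.25 to 6.73 with it. Auxin gave the higher value in prometaphase and early-G1 and the lower in ana/telophase and mid-G1. The fifth joined an exon of Rgs6, a regulator of G-protein signalling, to a region without a protein-coding gene 520 kb away (chr12:84200001-84210000 and chr12:84720001-84730000), and holds the first sequence shown above. It gave 3.93, 7.14, 9.28 and 8.72 without auxin and 1.68, 5.91, 9.78 and 6.87 with it. Its CTCF loop, 620 kb long, fell from 13.9 to 3.74 in mid-G1, a larger loss than that of the one-anchor loop. All 5 were lower with auxin in mid-G1, with log2 changes from -0.45 to -0.33, a direction that choosing them by their -auxin strength favours.

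Among loops called with auxin, the strongest in mid-G1 with auxin after that at Rps6ka4 joined a region without a protein-coding gene to an exon of Tnrc18, 360 kb away (chr5:143200001-143210000 and chr5:143560001-143570000). It gave 4.50, 5.00, 5.52 and 6.83 without auxin and 6.06, 4.52, 5.49 and 7.58 with it. Treatments differed here by at most 0.15 in log2 after prometaphase. A loop of 710 kb to an exon of Gpr137b, a lysosomal membrane protein gene (chr13:12750001-12760000 and chr13:13460001-13470000), was called in +auxin cells only although its values were 4.78, 5.64, 13.5 and 7.59 without auxin and 8.35, 19.6, 9.26 and 7.45 with it. These values do not separate the treatments in mid-G1. A loop of 460 kb between exons of Btbd9 and of the incretin receptor gene Glp1r (chr17:30580001-30590000 and chr17:31040001-31050000) gave 3.44, 4.26, 6.48 and 7.60 against 3.22, 4.62, 6.00 and 6.67. The last, of 100 kb, had a free anchor within the window of the start of Baalc (chr15:38650001-38660000 and chr15:38750001-38760000) and gave 3.96, 4.61, 5.20 and 5.25 against 3.20, 4.72, 5.95 and 5.76. All 5 loops of this list had a prometaphase strength above 3 in both treatments.

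The largest losses in mid-G1 were in loops of 480 to 1310 kb. A loop of 1300 kb between exons of Col22a1, a collagen gene, and Ptk2, which encodes focal adhesion kinase (chr15:71740001-71750000 and chr15:73040001-73050000), gave 0.839, 3.82, 4.73 and 6.48 without auxin and 0.408, 0.621, 1.67 and 0.439 with it. That is a log2 change of -3.88 in mid-G1, and its strongest CTCF loop, of 1130 kb, went from 13.5 to 2.49. A loop of 610 kb to an exon of the golgin gene Golga3 (chr5:110020001-110030000 and chr5:110630001-110640000) gave 1.04, 1.65, 2.80 and 2.59 against 0.442, 0.801, 0.993 and 0.620. Both of its anchors hold a consensus match, shown above, and these point away from each other.

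A loop of 480 kb from the start of Bambi, a pseudoreceptor of the TGF-beta family, on chromosome 18 gave 1.15, 1.90, 2.23 and 2.47 against 1.27, 0.716, 0.578 and 0.629. A loop of 1310 kb from an exon of the mitochondrial reductase gene Mosc2 (chr1:186640001-186650000 and chr1:185330001-185340000) gave 1.73, 2.88, 4.03 and 6.29 against 2.43, 1.93, 1.72 and 1.75. All 4 were lower with auxin at the 3 later stages, as the choice of these loops required, and with auxin 3 of them were below 1 in mid-G1. The loops to Ptk2 and Golga3 were already lower with auxin in prometaphase, with log2 changes of -1.04 and -1.24.

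The largest gains were smaller in size. A loop of 160 kb into an intron of Lace1, with the start of the transcription factor gene Foxo3 in the window of its CTCF-side anchor (chr10:42000001-42010000 and chr10:42160001-42170000), gave 1.15, 0.767, 0.807 and 0.558 without auxin and 1.36, 1.23, 1.13 and 1.54 with it, a mid-G1 change of 1.46. A loop of 200 kb to an exon of Hs2st1, a heparan sulfate sulfotransferase gene (chr3:144020001-144030000 and chr3:144220001-144230000), gave 1.32, 0.940, 0.825 and 0.817 against 1.14, 1.41, 1.59 and 2.10. It lies on chromosome 3, which carries a translocation in these cells.

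A loop of 380 kb between an exon of Chst10, a sulfotransferase gene, and an intron of Aff3, a nuclear protein gene (chr1:38930001-38940000 and chr1:38550001-38560000), gave 0.488, 1.00, 0.744 and 0.668 against 1.08, 1.08, 1.20 and 1.59. A loop of 140 kb between an intron of Cd109 and the start of Eef1a1, the translation elongation factor gene (chr9:78470001-78480000 and chr9:78330001-78340000), gave 0.888, 0.827, 0.904 and 0.762 against 0.709, 1.29, 1.51 and 1.47. All 4 were below 1 in mid-G1 without auxin and above it with auxin, and 3 of the 4 were crossed by a structural loop, as was 1 of the 4 with the largest losses, that from Col22a1 to Ptk2. Free anchors near a CRE loop anchor were found in 3 of these 4 and in none of the 4 loops with the largest losses. In the full sets the share was 27.6% (22.0 to 34.0) for loops called in +auxin cells only. It was 23.1% (20.9 to 25.5) for those called in -auxin cells only, and these intervals overlap. The 8 loops with the largest gains and losses were picked by their mid-G1 change, so their values describe the ends of the range.

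Of 55 genes with known roles in erythroid cells, 51 were in the annotation and 3 had a start within the 30 kb window of an anchor, in 5 one-anchor loops. Jak2 encodes the kinase that signals for the erythropoietin receptor. Its loop of 90 kb (chr19:29320001-29330000 and chr19:29230001-29240000) gave 1.16, 1.24, 1.54 and 1.55 without auxin and 0.683, 0.983, 1.28 and 1.55 with it, so the lower values with auxin at the first 3 stages were not seen in mid-G1. It was called in -auxin cells only. Btg2, an antiproliferative gene, had a loop of 140 kb (chr1:135970001-135980000 and chr1:136110001-136120000) with 1.02, 1.12, 1.26 and 1.13 against 1.17, 1.01, 1.59 and 1.28. It was crossed by a structural loop and called in +auxin cells only.

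Sox6, a transcription factor gene that represses embryonic globin genes, had 3 loops into its own gene body on chromosome 7, of 80, 350 and 500 kb (CTCF-side anchor chr7:123170001-123180000 for the shortest and chr7:123175001-123200000 for the others). The bin of the longer loops holds the starts of Sox6 and 1110006G14Rik, and that of the shortest holds only the latter, with the Sox6 start in its 30 kb window. The longest gave 1.15, 1.69, 1.88 and 1.83 without auxin and 1.30, 1.27, 1.43 and 1.49 with it. The loop of 350 kb gave 1.05, 1.45, 1.54 and 1.54 against 0.824, 1.27, 1.28 and 1.35. The shortest, called in both treatments, gave 1.03, 1.31, 1.84 and 1.60 against 1.05, 1.30, 1.55 and 1.25. All 3 lay inside a CTCF loop from the shared anchor, and all were lower with auxin in mid-G1, with log2 changes from -0.36 to -0.19. The strongest CTCF loop at that anchor, of 825 kb, had a mid-G1 strength of 3.13 without auxin and 1.51 with it.

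**Figure D5:**
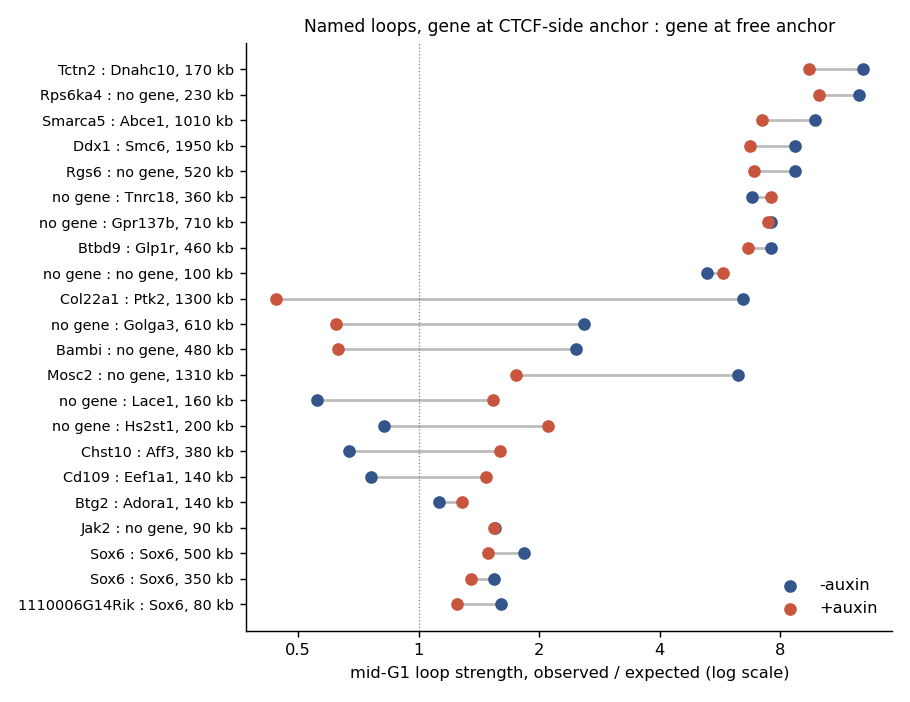
Mid-G1 loop strength (x axis, observed over expected, log scale) without auxin (blue) and with auxin (red) of the individual one-anchor loops described in the text, labelled by the gene in the CTCF-side and in the free summit bin and the loop size. The strongest loops lie to the right, at up to 12.9; the widest gap is that of the Col22a1 to Ptk2 loop, from 6.48 to 0.439.

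At most 4 one-anchor loops shared 1 CTCF-side anchor, and this occurred at 2 anchors, described here after their values were seen. From an exon of 4831426I19Rik (chr12:106170001-106180000), loops of 90 and 110 kb reached introns of Clmn and loops of 190 and 230 kb reached exons of Dicer1, the RNase of microRNA maturation. In mid-G1 the 4 gave 1.47, 1.72, 2.66 and 2.67 without auxin and 1.44, 1.56, 1.66 and 1.33 with it. The shorter loops thus changed little, by -0.03 and -0.14 in log2, and the longer lost more, with -0.68 in the loop of 190 kb. From a region without a protein-coding gene on chromosome 6 (chr6:72110001-72120000), loops of 80, 190, 260 and 290 kb reached a region without a protein-coding gene, an exon of Polr1a, the starts of Polr1a and Ptcd3, and an exon of Immt. Polr1a encodes the largest subunit of RNA polymerase I and Immt a mitochondrial inner membrane organiser. Without auxin these gave 1.33, 2.20, 2.60 and 2.23 in mid-G1. Here too the 2 shorter loops, with -0.24 and -0.55, lost less than the 2 longer, with -1.15 and -0.99. In each of the 2 sets the longer loops were also the stronger ones in mid-G1 without auxin. The loops of a set share an anchor and the same maps, so they are not independent.

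The values on either side of the limits of the rule are given without a spread. The 296 loops whose CTCF-side anchor lay over 15 and up to 20 kb from a CTCF loop anchor had a median mid-G1 change of -0.24, and the 101 uncategorised loops whose nearer anchor lay over 20 and up to 25 kb away, just outside the rule, had -0.22. In bins of over 10 and up to 20 kb and of over 20 and up to 30 kb these medians were -0.23 (395 loops) and -0.19 (265 loops). On the free side, the 443 one-anchor loops whose free anchor lay over 20 and up to 30 kb from a CTCF loop anchor had -0.43, and 83.5% of them were called in -auxin cells only. Just across that limit, the 638 uncategorised loops with both anchors at CTCF loop anchors and the farther one over 10 and up to 20 kb away had -0.60 and 91.5%. The 398 one-anchor loops whose free anchor lay over 100 kb away had -0.30.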

How the data were processed

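The deposited tables list loops and domain boundaries of 8 Hi-C maps in mm9. Per the labels and methods, the authors aligned reads with Bowtie2 through HiC-Pro, merged replicates, built maps with juicer_tools and called loops with a modified HICCUPS on 10 and 25 kb bins. Loop strength is deposited as a ratio, the contacts the authors observed at a summit and its neighbouring pixels over those expected from its surroundings. Boundary strength is deposited as a signal, the insulation difference computed by the authors at boundaries called with rGMAP. The contacts behind single values are not given in the tables used here, so their counting error is unknown. The 4 libraries with another treatment were not used.

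The loops, gene list and measures were chosen with earlier results of these data known. Distances are between anchor midpoints. Changes are log2(+auxin / -auxin), leaving out the 1 one-anchor loop with a strength of 0 where it occurs. A chromosome entered an SD of medians with at least 5 loops, and an SD of the rise only with a larger number. Anchor windows are 30 kb wide. The 12-letter CTCF core consensus was searched on both strands of the mm9 sequence, and genes are those of the annotation of that build.

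Individual loops were named by rule, among those with a 10 kb summit. They are the 5 strongest in mid-G1 without auxin, the 5 strongest with auxin among those called with it, and the 4 lowest and 4 highest mid-G1 changes. For the changes, a strength of at least 1.5 in a map after prometaphase and the same sign at the 3 later stages were required. Loops at starts of listed erythroid genes were added whatever their width. Sequences at loops of the second and last sets, and at a free anchor, were added after values were seen.

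The tables used here give 1 value per condition, from merged maps, so no test between treatments was made. Medians carry the SD over chromosomes and shares a 95% Wilson interval. Scripts used Python 3.11.15, numpy 2.4.6, pandas 2.3.3, scipy 1.17.1 and matplotlib 3.10.9, and were tested on simulated data. Alternatives covered the distance, the loops counted as CTCF or CRE loops, the summit width, chromosome 3, the definition of presence, the centring and pseudocount of changes, and the consensus search.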

Additional observations from a re-analysis of the deposited data

How the results depend on the processing

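Of 48 alternative values, 18 moved beyond the spread or counting interval of the main value, 1 changed sign and 29 did neither. Among the 29 are 6 counts of one-anchor loops, which have no such interval and were held to within 1.5 times the main count. With a distance of 10 kb the share called in -auxin cells only was 84.3%, the median mid-G1 log2 change -0.41, the share inside a CTCF loop 72.2% and the share of CTCF-side anchors with a consensus 42.9%. At 40 kb these were 75.4%, -0.23, 63.0% and 28.6%. With structural loops alone as CTCF loops, 66.3% lay inside. With 10 kb summits only, 81.9% were called in -auxin cells only and 73.1% lay inside. Presence by strength gave 37.6% in place of 79.2%. Centring on all loops turned the mid-G1 change to 0.074. The share of free anchors near a CRE loop anchor was 15.6% at 10 kb, 39.1% at 40 kb and 19.6% with the CRE loops called in -auxin cells. By the strongest CTCF loop alone, 59.9% lay inside. A consensus was found at 17.8% of CTCF-side anchors in a 10 kb window and at 97.8% with 1 mismatch. The cause of these shifts was not tested. The number of one-anchor loops ranged from 1180 to 1825 over the alternatives, and leaving out chromosome 3 moved no result beyond its spread. No paired analysis was possible because the tables used here hold 1 value per condition, computed from merged replicates. The depth behind single loops is not given in the tables used here, so small differences in single loops have no error.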
